A study of Mus musculus with 6 samples.

Results

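The genes described here signal and repair DNA double-strand breaks. They are 34 genes chosen by symbol, of which 33 were matched by name in a gene table of the mouse testis that holds 44065 genes in all; Polq, which encodes a polymerase of end joining, was not matched by name and is not analysed here. The list had 4 arms. Break sensing and its kinases had 8 genes, ubiquitin signalling at breaks had 4, homologous recombination and its Fanconi partners had 14, and end joining had 7 of 8 matched. Rad51b stayed under the filter on low values (at least 0.5 FPKM, fragments per unit of gene length and library depth, in at least 3 of 6 libraries), so 32 of the 33 members were tested among 19201 genes.

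The RNA came from the testes of male C57BL/6 mice, 6 weeks old at the start of a 10-week exposure as control or sedentary animals. Each group had 3 animals with 1 library each, named as biological replicates in the labels, and no other treatment or allele is given. How the sedentary state was imposed is not given in the sources used here. A further group with physical activity as compensation was not analysed here. Total RNA was depleted of ribosomal RNA and sequenced as read pairs, and the series title names sperm DNA damage, so the comparison asks how the transcripts of break repair stood in sedentary against control testes.

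Double-strand breaks are bound by the Mre11-Rad50-Nbn complex, which activates the kinase ATM, while ATR is activated on single-stranded DNA. These kinases phosphorylate histone H2AX, MDC1 binds the mark, and the ubiquitin ligases RNF8 and RNF168 modify chromatin so that 53BP1 and BRCA1 complexes gather. Breaks are then joined end to end by Ku, DNA-PKcs and the LIG4 complex, or copied from an intact partner by BRCA2 and other recombination proteins. In the testis, spermatocytes make breaks on purpose for meiotic recombination, and ATR, TOPBP1, MDC1, RNF8 and BRCA1 also work on the unpaired sex chromosomes.

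Atm and Rnf168 were the members called lower in the sedentary testes. Atm, the kinase at the head of the break response, was at 63.2% of its control mean, and Rnf168, the ligase that extends the ubiquitin mark, was at 75.6%. Both fell in limma's voom test on whole reads recovered from the table, with log2 fold changes of -0.65 ± 0.15 (SE, adjusted p = 0.0421) and -0.40 ± 0.10 (SE, adjusted p = 0.0433). These were 2 of the 32 tested members, and 1.12% of all tested genes were called lower in that test. In limma's test on log2(FPKM + 0.5), which was the main test, 0 members passed after Benjamini-Hochberg adjustment, where 0.026% of all genes were called. At an unadjusted p under 0.05 that test gave 7 members lower and 0 higher, against a background of 7.26% of genes lower and 10.1% higher. The 7 were Rnf168, Atr, Xrcc6, Atm, Brca2, Brca1 and Prkdc. In 10 members every sedentary library lay below every control library and in 1, Nhej1, every one lay above, while the shares of all genes were 10.8% and 13.7%.

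The promoters of Atm, Rnf168 and Atr are shown because these members had the smallest adjusted p on the reads, and that of Nhej1 because it alone had every sedentary library above the controls. The windows hold 250 bases before to 50 bases after the RefSeq start site on build GRCm38.p6, printed 5′ to 3′ on the gene's own strand. Capitals mark CCGGAAG, the core of ETS factor sites, and CCAAT, the box bound by NF-Y, with CTTCCGG and ATTGG as the same motifs read from the other strand. The windows lie at chr9:53536622-53536921 (minus strand) for Atm, chr16:32277211-32277510 (plus) for Rnf168, chr9:95857347-95857646 (plus) for Atr and chr1:75125177-75125476 (minus) for Nhej1.
Atm: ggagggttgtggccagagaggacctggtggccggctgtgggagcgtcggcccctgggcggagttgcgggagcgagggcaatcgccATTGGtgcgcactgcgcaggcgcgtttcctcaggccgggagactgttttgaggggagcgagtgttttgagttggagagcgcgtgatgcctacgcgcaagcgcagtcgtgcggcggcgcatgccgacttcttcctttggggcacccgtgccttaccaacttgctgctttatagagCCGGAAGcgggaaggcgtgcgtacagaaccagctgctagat
Rnf168: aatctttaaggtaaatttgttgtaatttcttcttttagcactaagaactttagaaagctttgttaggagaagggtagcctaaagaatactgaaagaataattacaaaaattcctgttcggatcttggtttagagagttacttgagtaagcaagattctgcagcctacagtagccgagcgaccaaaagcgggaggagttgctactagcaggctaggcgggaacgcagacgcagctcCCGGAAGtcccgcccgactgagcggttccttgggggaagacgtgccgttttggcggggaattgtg
Atr: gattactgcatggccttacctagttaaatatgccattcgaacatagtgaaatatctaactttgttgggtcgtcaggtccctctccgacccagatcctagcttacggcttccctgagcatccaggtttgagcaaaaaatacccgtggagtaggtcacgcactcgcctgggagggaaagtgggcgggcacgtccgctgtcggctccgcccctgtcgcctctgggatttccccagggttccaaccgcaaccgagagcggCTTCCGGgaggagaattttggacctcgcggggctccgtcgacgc
Nhej1: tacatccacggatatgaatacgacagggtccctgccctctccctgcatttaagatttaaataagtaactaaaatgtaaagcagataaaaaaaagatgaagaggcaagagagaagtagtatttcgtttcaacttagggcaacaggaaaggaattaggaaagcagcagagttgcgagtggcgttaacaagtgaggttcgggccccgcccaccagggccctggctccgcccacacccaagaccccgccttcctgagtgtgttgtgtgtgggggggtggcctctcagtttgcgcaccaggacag

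The windows of Atm, Rnf168 and Atr each hold 1 copy of the ETS letters close to the start site, and that of Nhej1 holds none. RefSeq windows were matched for 27 of the 33 members, 31 windows in all. CCGGAAG stood in 10 of them (32.3%), which belong to 9 members, Atm, Atr, Rnf168, Topbp1, Palb2, Rad51c, Xrcc4, Lig4 and Dclre1c. It stood in 8.86% of 32851 mouse windows and in 16.9% of the 15040 windows with at least 9 CpG, the lowest number in a member window. Member windows had a median of 22 CpG and 59.7% GC, against 7 CpG and 52.7% GC over all windows. A floor of 9 CpG does not by itself match that composition. TTTNNCGC, the core of E2F sites, stood in 25.8% of member windows and in 9.14% of the windows with at least 9 CpG. For CCAAT the shares were 54.8% and 35.8%, for the GC box GGGCGG 74.2% and 67.6%, and for the NRF1 core TGCGCA 25.8% and 14.8%. The CREB site TGACGTCA stood in 6.45% and 3.29%, the MYB letters AACNGNC in 35.5% and 32.7%, and the CHR element TTTGAA in 9.68% and 10.0%. All motifs were searched on both strands, and a match describes letters, not a bound site. The log2 fold change of the 9 members with CCGGAAG ran from -0.46 (Atm) to -0.02 (Rad51c). Brca1, Brca2 and Xrcc6, at -0.36, -0.24 and -0.30, had matched windows without it. A relation between these letters and the fold change was not tested. The Atm window overlaps that of the divergent gene Npat by 125 bases, the first 125 printed here. The marked ATTGG lies in that stretch and the marked CCGGAAG does not.

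Among the sensing genes, Atm was measured at 1.38, 1.23 and 1.86 FPKM in control replicates 1, 2 and 3, and at 0.919, 1.07 and 0.833 FPKM in the sedentary replicates. The groups did not overlap, and control replicate 3 stood highest. These levels rest on 560, 361 and 638 control reads and on 317, 418 and 292 sedentary reads. On FPKM the log2 fold change of Atm was -0.46 ± 0.16 (SE), and without control replicate 3 it was -0.33. Atm spans 53943303 to 54043764 on chromosome 9 in the table's own coordinates, whose build the sources used here do not settle. Its call held in 2 of 6 fits on the reads that left out a library, those without control replicate 2 or sedentary replicate 2. The adjusted p of limma's voom ran from 0.00765 to 0.208. Without control replicate 2 or sedentary replicate 2 the test called 1058 and 779 of all 19201 genes, against 277 with all libraries.

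Atr, the kinase that answers single-stranded DNA and silences unpaired chromosomes in spermatocytes, was, with Nbn, the most abundant of the sensing genes. Its level was 14.6, 13.2 and 14.8 FPKM in the controls and 11.6, 12.1 and 10.1 FPKM in the sedentary testes. All sedentary libraries lay below all controls, and the log2 fold change was -0.33 ± 0.09 (SE). Limma gave an adjusted p of 0.207 on FPKM, and its voom test gave 0.0567, so Atr did not pass. It passed on the reads without control replicate 2 or sedentary replicate 2 (lowest adjusted p of limma's voom 0.0216). These are the fits that called 1058 and 779 of all genes, against 277 with all libraries. Chek1, the effector kinase downstream of ATR, was at 2.51, 2.10 and 2.15 FPKM in the controls and at 1.84, 1.82 and 1.92 FPKM in the sedentary testes. Its groups did not overlap either, and it did not pass (log2 fold change -0.22 ± 0.11, SE, adjusted p of limma 0.336). The ratio of Atr to Chek1 was 5.81, 6.29 and 6.89 in controls and 6.29, 6.65 and 5.27 in sedentary testes, with overlapping groups (difference of the log2 ratio -0.06, exact permutation p = 0.7).

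Chek2, the effector kinase downstream of ATM, had overlapping groups. It was the least abundant tested member, at 0.598, 0.573 and 0.707 FPKM in controls and 0.724, 0.610 and 0.734 FPKM in sedentary testes, with 46 to 70 reads in a library. The ratio of Atm to Chek2 was 2.31, 2.14 and 2.63 in the controls and 1.27, 1.75 and 1.14 in the sedentary testes. These groups did not overlap, and the log2 ratio differed by -0.79. The exact two-sided permutation test gave p = 0.1, the smallest that 3 against 3 allows, and 0.4 after adjustment over the 8 ratios compared.

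The break-binding complex had overlapping groups in all 3 genes. Mre11a, its nuclease, was at 7.25, 7.09 and 6.55 FPKM in controls and 7.38, 7.76 and 6.51 FPKM in sedentary testes. Rad50, the tethering ATPase, was at 4.73, 4.15 and 4.73 FPKM in controls and 4.26, 4.77 and 4.06 FPKM in sedentary testes. Nbn, which recruits ATM, was at 11.7, 12.6 and 12.3 FPKM in controls and 11.0, 13.2 and 11.3 FPKM in sedentary testes. The difference of the group means was smaller than the spread between replicates in each of them. The ratio of Rad50 to Mre11a was 0.652, 0.586 and 0.722 in controls and 0.577, 0.615 and 0.623 in sedentary testes. That of Nbn to Mre11a was 1.61, 1.78 and 1.88 in controls and 1.49, 1.70 and 1.73 in sedentary testes. Both ratios overlapped between the groups, with differences of -0.11 and -0.10 on the log2 scale and exact permutation p = 0.4 for each. Topbp1, the activator of ATR, was at 7.27 ± 0.86 and 6.65 ± 0.13 FPKM. Atm, Atr, Chek1, Mre11a and Topbp1, 5 of the 8 sensing genes, lie on chromosome 9, which holds no other member.

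**Figure D1:**
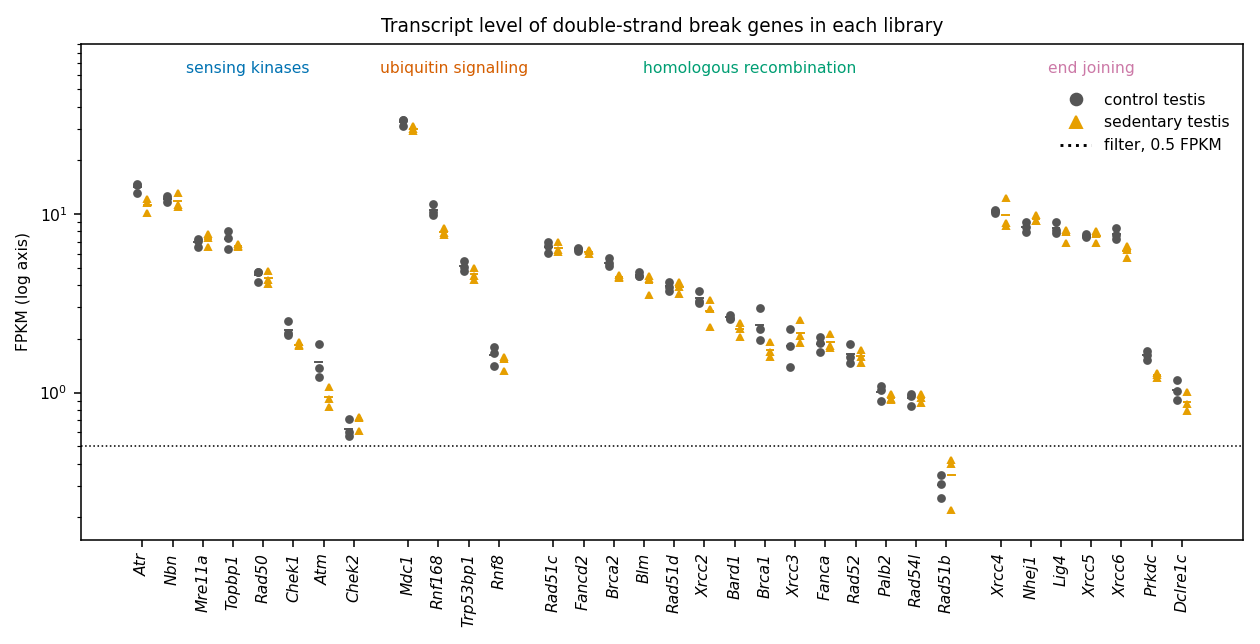
Level of each of the 33 members in FPKM on a log axis, with 1 point per library (circles, 3 control; triangles, 3 sedentary) and a dash at the mean, ordered by level within each arm. Mdc1 stood highest at about 30 FPKM, and Rad51b alone lay wholly under the dotted filter at 0.5 FPKM.

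In the ubiquitin arm all 4 members had a fold change below 0. Rnf168 was at 11.4, 10.2 and 9.91 FPKM in the controls and at 7.59, 8.36 and 7.88 FPKM in the sedentary testes. The lowest control lay above the highest sedentary library. It was covered by 1130 to 1988 reads in a library and had the smallest unadjusted p of the members in the main test, where its adjusted p from limma was 0.199. Its call on the reads held in 2 of the 6 fits that left out a library, again those without control replicate 2 or sedentary replicate 2, with an adjusted p of limma's voom from 0.0321 to 0.193. It lies on chromosome 16 from 30971521 to 30998358 in the table's coordinates.

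Rnf8, the ligase that acts just before RNF168, was at 1.80, 1.66 and 1.40 FPKM in controls and 1.54, 1.31 and 1.58 FPKM in sedentary testes, and its groups overlapped. The ratio of Rnf168 to Rnf8 was 6.32, 6.17 and 7.06 in controls and 4.94, 6.36 and 4.99 in sedentary testes. Sedentary replicate 2 lay among the controls, and the log2 ratio differed by -0.27 (exact permutation p = 0.3). Mdc1, the scaffold that binds phosphorylated H2AX, was the most abundant member of all, at 33.8, 33.7 and 31.0 FPKM in controls and 31.2, 29.8 and 29.2 FPKM in sedentary testes. Only its lowest control and highest sedentary library overlapped, and it did not pass (log2 fold change -0.12 ± 0.07, SE, adjusted p of limma 0.394). Trp53bp1, whose protein 53BP1 reads the RNF168 mark and favours end joining, was at 4.82, 5.47 and 5.08 FPKM in controls and 4.98, 4.28 and 4.51 FPKM in sedentary testes, with overlapping groups.

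**Figure D2:**
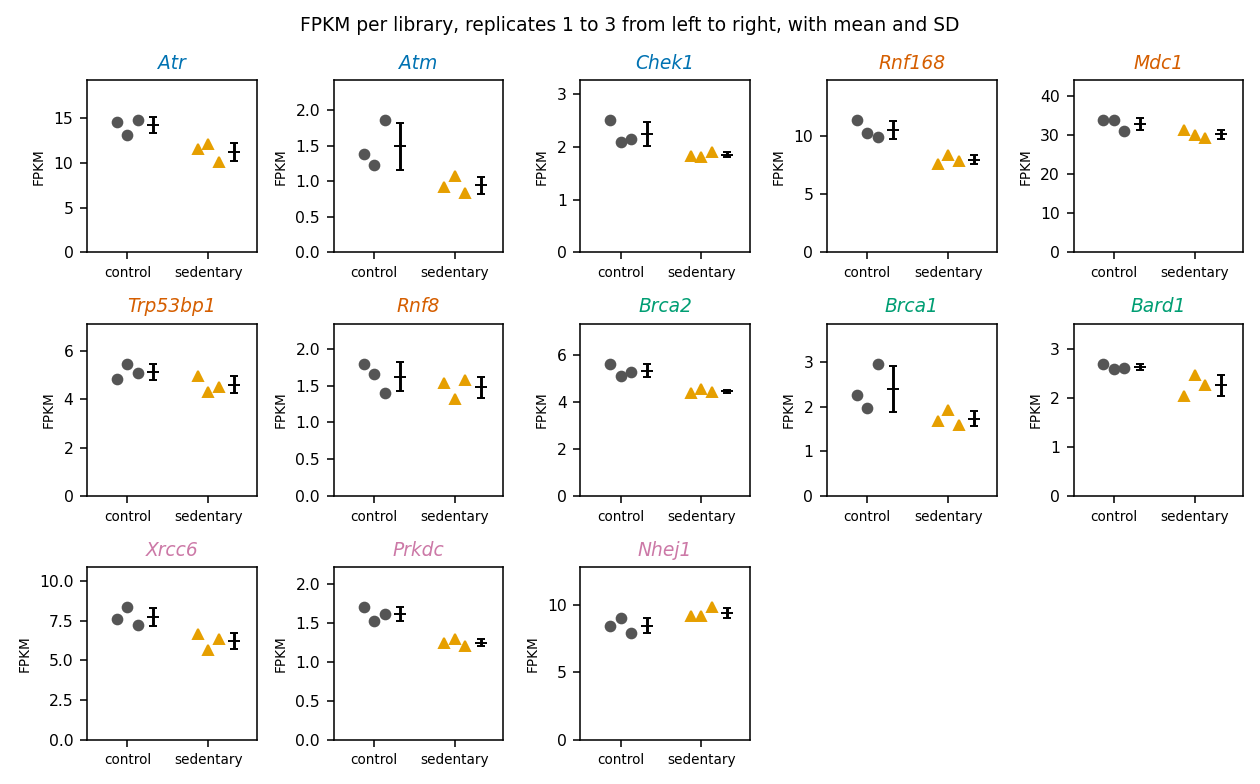
FPKM of 13 members in each library, on axes that start at 0, with replicates 1 to 3 from left to right and the mean ± SD beside them. The groups do not overlap for Atr, Atm, Chek1, Rnf168, Brca2, Brca1, Bard1, Xrcc6, Prkdc and, in the other direction, Nhej1.

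In homologous recombination the 3 members with the smallest p were Brca2, Brca1 and Bard1. Brca2, a central mediator of homologous recombination, was at 5.65, 5.11 and 5.29 FPKM in controls and 4.40, 4.54 and 4.44 FPKM in sedentary testes. The sedentary libraries were tightly grouped below all controls, and the log2 fold change was -0.24 ± 0.09 (SE, adjusted p of limma 0.237). Brca1, the ligase that promotes resection and recruits BRCA2 through PALB2, was at 2.26, 1.97 and 2.97 FPKM in controls and 1.69, 1.92 and 1.59 FPKM in sedentary testes. The margin between its groups was narrow, and control replicate 3 stood far above the other 2, as it did for Atm.

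Brca1 had a log2 fold change of -0.36 ± 0.15 (SE, adjusted p of limma 0.264), and an adjusted p of 0.0856 by voom. Without control replicate 3 its fold change was -0.23. It passed on the reads in 1 of the 6 fits that left out a library, with an adjusted p of 0.0208 from limma's voom. That was the fit without control replicate 2, which called 1058 of all genes. Bard1, the obligate partner of BRCA1, was at 2.71, 2.59 and 2.63 FPKM in controls and 2.05, 2.47 and 2.27 FPKM in sedentary testes, again without overlap and without a call (adjusted p of limma 0.383). The ratio of Brca1 to Bard1 was 0.835, 0.761 and 1.13 in controls and 0.825, 0.780 and 0.700 in sedentary testes. Control replicate 3 stood apart from the other 5 libraries, and the log2 ratio differed by -0.23 (exact permutation p = 0.4). Palb2, the bridge from BRCA1 to BRCA2, was at 1.01 ± 0.10 FPKM (SD, n = 3) and 0.933 ± 0.038 FPKM.

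Rad51b, Rad51c, Rad51d, Xrcc2 and Xrcc3, which help homologous recombination at its early steps, had differences on both sides of 0. Rad51c and Rad51d were at 98.4% and 98.5% of their control means. Xrcc2 was at 84.5% and Xrcc3 at 119%, with log2 fold changes of -0.22 ± 0.13 (SE) and 0.21 ± 0.17 (SE) and overlapping groups. Both rested in part on 1 library, with Xrcc2 at -0.10 without sedentary replicate 3 and Xrcc3 at 0.06 without control replicate 2. Rad51b was listed at 0.302 ± 0.044 FPKM (SD, n = 3) in controls and 0.345 ± 0.109 FPKM in sedentary testes, on 13 to 28 reads in a library, a depth at which no difference of this size was detectable.

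Blm, the helicase that dissolves recombination intermediates, was at 4.58 ± 0.13 FPKM (SD, n = 3) and 4.12 ± 0.52 FPKM without overlap of the groups, and its log2 fold change was -0.14 ± 0.11 (SE). Rad52, which anneals single strands, and Rad54l, the motor that helps strand invasion, were at 97.8% and 100% of control. Fancd2 and Fanca, of the Fanconi crosslink pathway that hands breaks to recombination, were at 96.6% and 102%. None of these 5 genes had an adjusted p under 0.5 by limma.

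In end joining the Ku heterodimer, which encloses free DNA ends, had unlike values in its subunits. Xrcc6 was at 7.63, 8.35 and 7.25 FPKM in controls and 6.63, 5.67 and 6.32 FPKM in sedentary testes, with all sedentary libraries lower. Its partner Xrcc5 was at 7.74, 7.44 and 7.53 FPKM in controls and 6.89, 8.04 and 7.70 FPKM in sedentary testes, with overlapping groups. The log2 fold changes were -0.30 ± 0.10 (SE, adjusted p of limma 0.214) and -0.01 ± 0.09 (SE, adjusted p of limma 0.977).

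The ratio of Xrcc5 to Xrcc6 was 1.01, 0.891 and 1.04 in the controls and 1.04, 1.42 and 1.22 in the sedentary testes. Every sedentary ratio lay above every control ratio, the first by a narrow margin, and the exact two-sided permutation test gave p = 0.1, the smallest possible, and 0.4 adjusted over the 8 ratios. Xrcc6 overlaps Desi1 on the opposite strand, and the sources used here give no strand for the counting. Desi1 had 78644 reads over the 6 libraries against 4954 for Xrcc6, with a log2 fold change of 0.12. The part of these reads in the Xrcc6 values was not tested.

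Prkdc, the catalytic subunit of the DNA-dependent kinase that Ku recruits, was at 1.70, 1.52 and 1.62 FPKM in controls and 1.25, 1.29 and 1.20 FPKM in sedentary testes. Both groups were tight and apart, at 77.2% of control, and limma gave an adjusted p of 0.269 on FPKM, with 0.0748 from voom. Dclre1c, the nuclease that opens hairpin ends, was at 85.3% of control with overlapping groups. Nhej1, which aligns ends for the ligase, was at 8.45, 9.07 and 7.91 FPKM in controls and 9.21, 9.17 and 9.84 FPKM in sedentary testes. It was the one member with all sedentary libraries higher, by 0.14 ± 0.08 on the log2 scale (SE), and did not pass (adjusted p of limma 0.403).

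Lig4, the ligase of end joining, was at 9.05, 8.18 and 7.84 FPKM in controls and 7.95, 8.17 and 6.88 FPKM in sedentary testes. Its partner Xrcc4 was at 10.4, 10.1 and 10.5 FPKM in controls and 8.87, 12.4 and 8.55 FPKM in sedentary testes. Both genes had overlapping groups, and sedentary replicate 2 lay above all other libraries for Xrcc4. The ratio of Xrcc4 to Lig4 was 1.15, 1.23 and 1.34 in controls and 1.12, 1.51 and 1.24 in sedentary testes, again with overlap (difference of the log2 ratio 0.05, exact permutation p = 0.8).

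**Figure D3:**
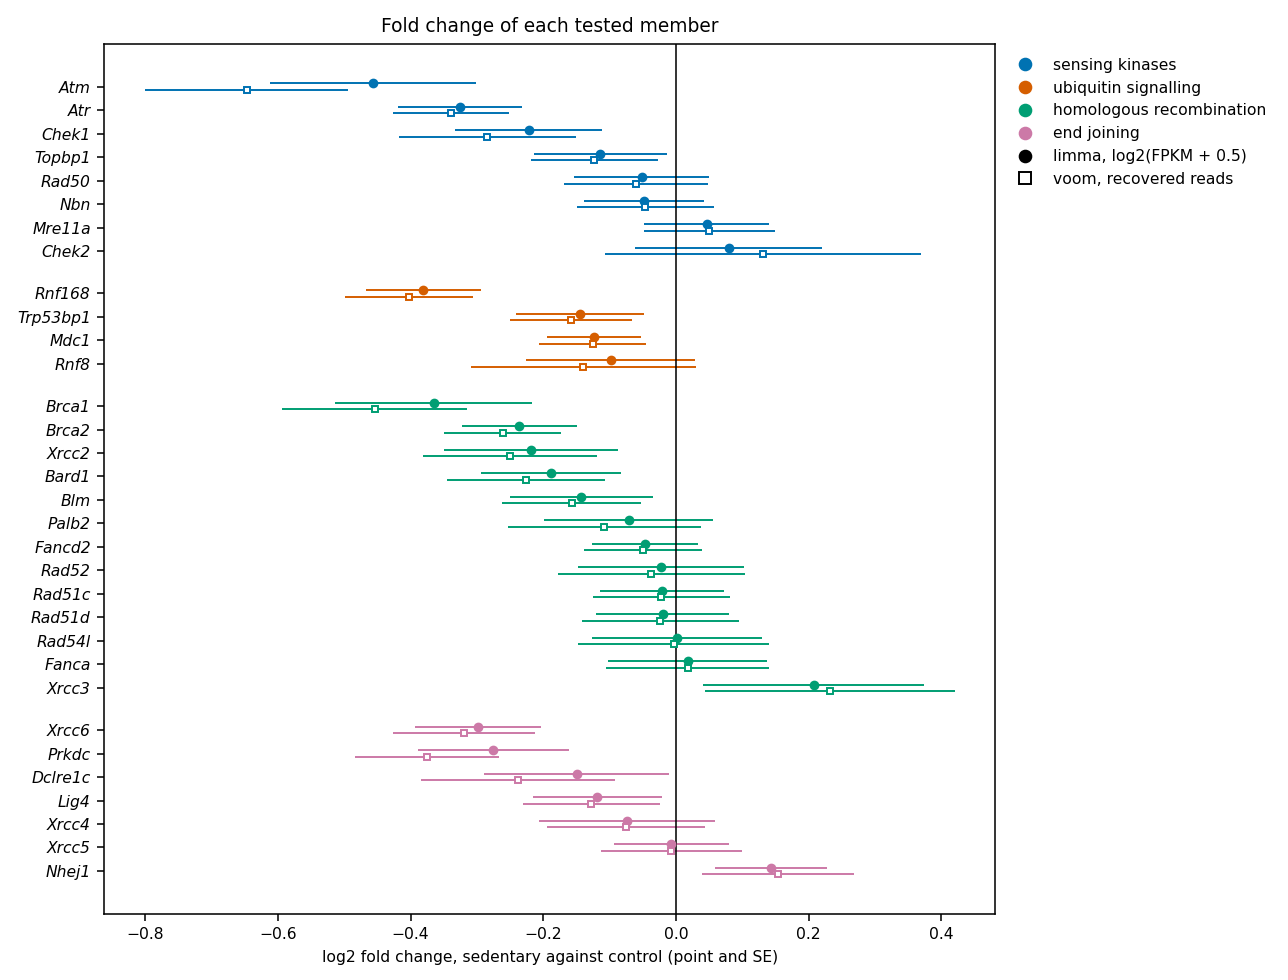
Log2 fold change of sedentary against control with its SE for the 32 tested members by arm, from limma on log2(FPKM + 0.5) (filled circles) and from limma's voom on the recovered reads (open squares). On FPKM Atm and Rnf168 stood furthest below 0 and 6 members stood above it, while on the reads Brca1 lay between Atm and Rnf168.

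The members as a group lay slightly to the lower side. Of 32 tested members 26 had a log2 fold change below 0, with a median of -0.11, while 47.8% of all tested genes were below 0 and their median was 0.01. The median was -0.08 for the sensing genes (6 of 8 below 0), -0.13 for ubiquitin signalling (4 of 4), -0.05 for homologous recombination (10 of 13) and -0.12 for end joining (6 of 7). Summed over the members, the level was 183 to 193 FPKM in the control libraries and 166 to 178 FPKM in the sedentary libraries. When each library was scaled to TPM, which sets all sums equal, 29 members were below 0 with a median of -0.20, but so were 66.6% of all genes with a median of -0.09. The RNA is of whole testis, so fewer cells of a type and less RNA per cell cannot be told apart.

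Gene length went with the fold change. The members are long genes, with a median length in the table of 5650 bases against 3564 bases over 13141 tested protein-coding genes, and they range from 1745 bases (Nhej1) to 23150 bases (Atr). Over the 32 members Pearson's r between fold change and log2 length was -0.53 (Spearman's rho -0.50), and over the protein-coding genes it was -0.24; genes are not independent replicates. Without Atr and Nhej1, the longest and the shortest tested member, r was -0.42. The longer 16 members had a median log2 fold change of -0.13 and the shorter 16 one of -0.06, with 13 of 16 below 0 in both.

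A slope with length was also seen over protein-coding genes at large. Protein-coding genes under 2000 bases had a median log2 fold change of 0.08, those from 2000 to 4000 bases 0.05, those from 4000 to 8000 bases -0.00, those from 8000 to 16000 bases -0.07, and longer ones -0.12. In the class from 4000 to 8000 bases, 12 of 14 members were below 0 with a median of -0.07, where 51.0% of coding genes were below 0. From 8000 to 16000 bases, 8 of 9 members were below 0 with a median of -0.15, where 66.9% of coding genes were. Atr at -0.33 lay below the lower quartile of the longest class, which was -0.24.

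**Figure D4:**
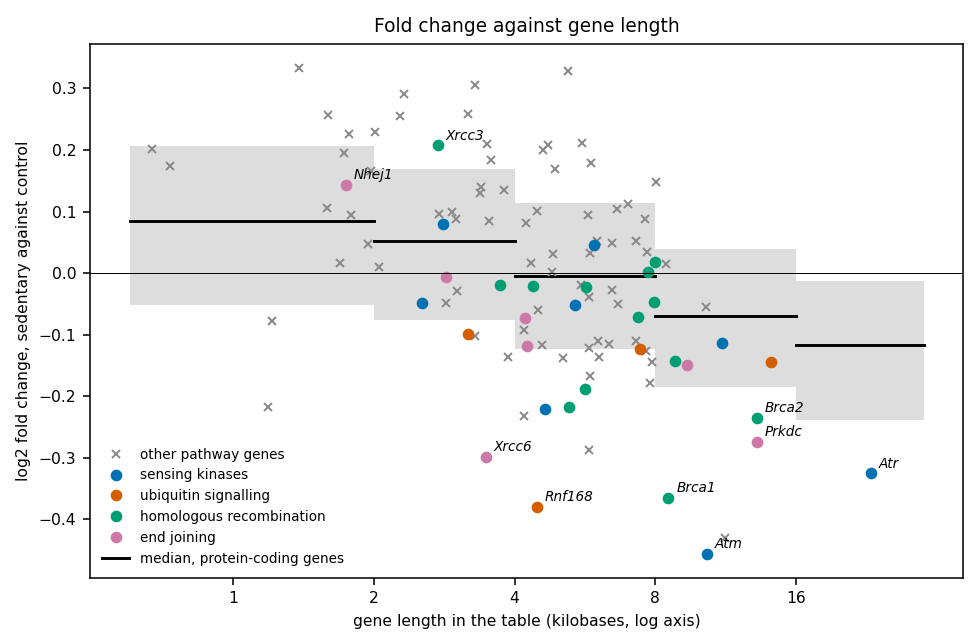
Log2 fold change of sedentary against control by gene length in kilobases (log axis) for the 32 tested members, coloured by arm, and 75 other genes of the pathway (crosses), with the median (line) and the middle 50% (band) of protein-coding genes in 5 length classes. The class medians run from 0.08 to -0.12, and Rnf168, Xrcc6, Brca1 and Atm lie well under the band at their length.

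Base composition went with it as well. GC content of the longest transcript in GENCODE M21 had a median of 45.9% over the 33 members and of 49.9% over tested coding genes with a value. Over the members r between fold change and GC was 0.48, and over the coding genes 0.49. After the length trend of each library was removed, 25 of 32 members were below 0 with a median of -0.08. Of all tested genes 46.8% were then below 0, with a median of 0.02. After the length and GC trends were removed, 19 members were below 0 with a median of -0.02. Of the 14504 genes in that fit, 45.0% were below 0 and the median was 0.02. The medians of the arms were then -0.00 for sensing, -0.13 for ubiquitin signalling, -0.03 for homologous recombination and 0.03 for end joining. With both trends removed, Rnf168, Atm and Brca1 had log2 fold changes on FPKM of -0.31, -0.30 and -0.28, against -0.38, -0.46 and -0.36 before. Xrcc6 was at -0.38 (-0.30 before) and Atr at -0.10 (-0.33 before).

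On the reads, Atm lost its call when the length trend was removed (adjusted p of limma's voom 0.0578) and Rnf168 kept it (0.0471). The fold changes on the reads were then -0.54 for Atm and -0.39 for Rnf168, against -0.65 and -0.40 before, and both p-values lay close to the threshold. With the length and GC trends removed, neither passed (adjusted p of limma's voom 0.0853 and 0.0912), in a fit over the 14504 genes with a GC value, where both had been called before removal (0.0496 for Atm). Xrcc6 then had the smallest adjusted p of all members, at 0.0522 by limma's voom, and did not pass either. Its fold change on the reads was -0.40 in that fit. The part of length and base composition in these differences was not tested further.

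**Figure D5:**
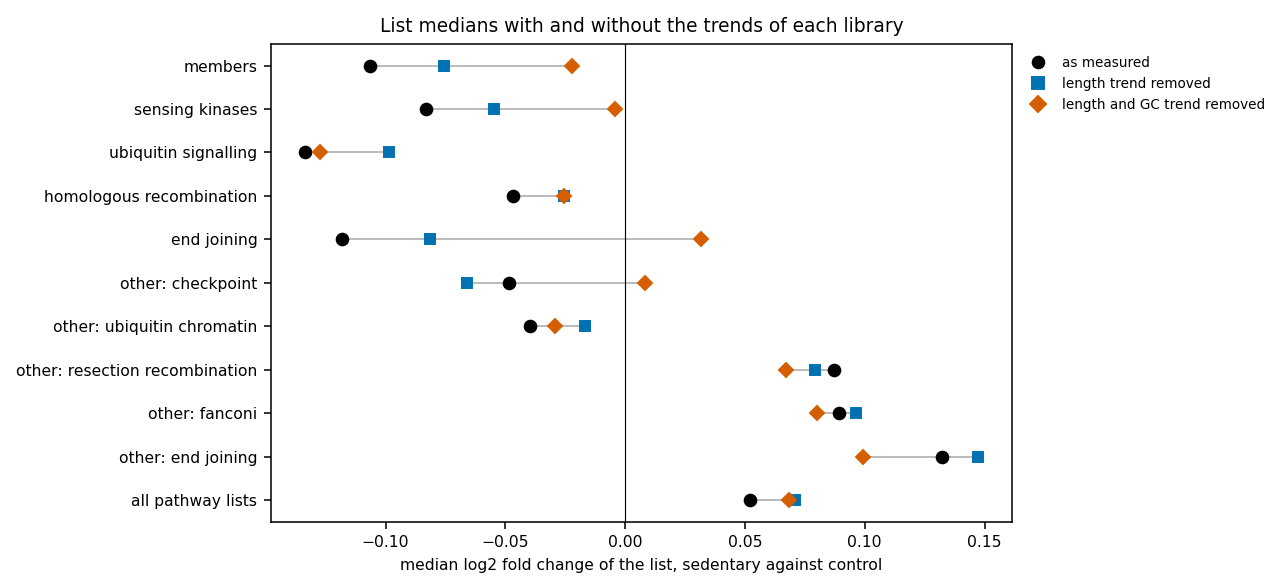
Median log2 fold change of sedentary against control for the members, their 4 arms and the other pathway lists, as measured and after removal of each library's length trend or length and GC trends. The members' median moves from -0.11 to -0.02, while that of the other pathway genes stays near 0.05 to 0.07.

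In the rest of the pathway the fold changes lay on both sides of 0. Of 75 other tested genes of break signalling and repair, 27 had a log2 fold change below 0, with a median of 0.05. Under TPM scaling, with its lower level for all genes, 47 were below 0 and the median was -0.04, so its sign turned. It stayed above the median of all genes, which was then -0.09 with 66.6% below 0. The clamp and checkpoint genes (13 tested) had a median of -0.05, from Etaa1, an activator of ATR, at -0.23 to Kat5, the acetyltransferase that activates ATM, at 0.23. That median turned to 0.0081, with 5 of 13 below 0, after removal of the length and GC trends, and ran from -0.083 to 0.0036 (without sedentary replicate 3) when 1 library was left out. The other ubiquitin and chromatin genes (15 tested) had a median of -0.04, with 9 below 0. In that list Rif1, the effector of 53BP1 that holds back resection, was called lower on the reads (adjusted p of limma's voom 0.0379).

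Rif1 was at 14.6, 12.9 and 16.1 FPKM in controls and 11.0, 11.8 and 9.18 FPKM in sedentary testes, without overlap, and its log2 fold change was -0.43 ± 0.12 (SE). It is 11273 bases long, its call held in 2 of the 6 fits that left out a library (those without control replicate 2 or sedentary replicate 2), and its fold change was -0.23 after removal of the length and GC trends. H2afx, the gene of the histone that ATM and ATR mark, stood at the other end of that list at 19.0 ± 2.5 FPKM (SD, n = 3) in controls and 24.1 ± 3.3 FPKM in sedentary testes. Its groups overlapped, and it did not pass on the reads (adjusted p of limma's voom 0.124). H2afx passed in 1 of the 6 fits on the reads that left out a library (adjusted p of limma's voom 0.0451).

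Resection and recombination genes outside the members (27 tested) had a median of 0.09 with 8 below 0, from Helq, a helicase of annealing, at -0.14 to Rpa1, which coats single-stranded DNA, at 0.21. The other Fanconi genes (10 tested) also had a median of 0.09, from Fanci, the partner of FANCD2, at -0.29 to Faap100, of the core complex, at 0.33. In the other end-joining genes 0 of 10 were below 0 and the median was 0.13, with Aptx, which repairs failed ligation ends, lowest at 0.03. Under TPM scaling these 3 medians were -0.01 (17 of 27 below 0), -0.01 (5 of 10) and 0.04 (4 of 10), and under quantile normalization 2 of the 10 end-joining genes were below 0. None of the genes in these 3 lists was called in either test. On the reads Faap100 passed in 2 of the 6 fits that left out a library (lowest adjusted p of limma's voom 0.0473). Poll, of the end-joining list, passed in 1 (0.0413). Over the 75 genes r between fold change and log2 length was -0.41, and r with GC was 0.57.

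The marker lists of several testis cell types lay away from 0, although 0 markers passed limma's test on FPKM. All 11 tested Sertoli cell markers had a fold change above 0 (median 0.33), with summed levels of 559 to 622 FPKM in controls and 705 to 820 FPKM in sedentary testes. Under TPM scaling 1 of them was below 0. On the reads voom called Amhr2 and Cst9 of this list higher, where 0.318% of all genes were called higher. Markers of elongating spermatids were all 11 above 0 (median 0.25, 25170 to 29852 and 32364 to 34816 FPKM), but under quantile normalization 4 were below 0 and the median was 0.05, and under TPM scaling 1 was below 0 and the median was 0.14. Of this list voom called Prm2 and Tnp2 higher.

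Of 9 Leydig cell markers 8 were below 0 (median -0.45), with overlapping summed levels of 1090 to 1543 FPKM in controls and 967 to 1395 FPKM in sedentary testes. Control replicate 3 was the highest control, with a median deviation from the control mean of 0.38 on the log2 scale against -0.16 and -0.23 in the other 2 controls. Without it the Leydig median was -0.21 with 6 of 9 below 0. All 11 markers of peritubular cells and fibroblasts were below 0 (median -0.44, 83.8 to 122.8 and 62.3 to 77.9 FPKM), and without control replicate 3, again the highest control, the median was -0.34. On the reads voom called Star, Pdgfra and Col3a1 of these lists lower. Macrophage markers had a median of 0.24, with control sums of 15.3 to 42.5 FPKM around the sedentary sums of 27.0 to 41.1 FPKM, and without control replicate 3 the median was 0.63. Without control replicate 2 it was -0.12, so its sign depended on the library left out.

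Spermatocyte markers, which mark the cells that make meiotic breaks, had a median of -0.06 with 7 of 12 below 0 (3996 to 4264 and 4151 to 4419 FPKM). With TPM scaling that median was -0.18 and with quantile normalization -0.15, each with 10 of 12 below 0, and with the length and GC trends removed it was 0.03. Spermatogonial markers had a median of 0.07 and round spermatid markers of -0.03, which were -0.02 and -0.14 under TPM scaling. When 1 library was left out, the spermatogonial median ran from -0.0099 (without sedentary replicate 3) to 0.10 and was 0.0039 without control replicate 3. The round spermatid median ran from -0.12 (without sedentary replicate 1) to 0.05 (without control replicate 2), so neither list had a fixed sign. Every marker matched in the table had a value above 0 in at least 1 library. The part of cell composition in the members' values was not tested.

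Divergent coding genes that start within 1000 bases of a member were found for 11 of the 33 members, and 3 of these 11 neighbours were below 0, with a median of 0.11. Npat, which starts 307 bases from Atm, was at 5.24 ± 0.38 FPKM (SD, n = 3) in controls and 4.63 ± 0.62 FPKM in sedentary testes, with overlapping groups. Nbr1, 279 bases from Brca1, was at 151 ± 7 and 166 ± 13 FPKM. Mcm4, 466 bases from Prkdc, was at 2.66 ± 0.34 and 2.84 ± 0.22 FPKM.

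Some other members overlap abundant genes on the opposite strand, so their values are uncertain in the same way as those of Xrcc6. Rad54l (1478 reads over all libraries) overlaps Lrrc41 (20857 reads), Dclre1c (1846) overlaps Suv39h2 (7022) and Xrcc3 (1137) overlaps Klc1 (2915). Trp53bp1, Fancd2, Fanca and Xrcc4 overlap opposite-strand genes with fewer reads than their own. Atm, Rnf168, Brca1, Prkdc and Nhej1 overlap no other gene of the table, and the antisense genes at Atr hold 1180 and 209 reads against 60795.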

How the data were processed

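The authors deposited FPKM values per gene with gene names, lengths and coordinates; HISAT2, StringTie and DESeq2 and the builds mm10 and mm39 are named per the submitters' processing notes, without versions or roles. The table's build is not settled by the sources used here, and its identifiers follow a C57BL/6NJ annotation. Within each library 100% of the products of FPKM and length were integer multiples of a single step (tolerance 0.001), so whole reads could be recovered, 28495596 to 38148228 per library. Between 54.2% and 56.2% of counts under 50 were even, so pairs may in part be counted as 2 reads. The library totals implied by the FPKM were not the sums of the recovered reads. In control replicates 1, 2 and 3 the implied totals were 39204250, 28495483 and 33168513, and the sums 37654913, 28495596 and 31432613. In sedentary replicates 1, 2 and 3 they were 33356449, 37813015 and 33887886, and the sums 34984951, 38148228 and 34176662. No fit used the sums as library totals.

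Fold changes are on the log2(FPKM + 0.5) scale, which understates changes of low genes. The main test was limma 3.58.1 (R 4.3.3) with a variance trend, two-sided, over 19201 genes, with a threshold of 0.05 after Benjamini-Hochberg adjustment; voom on the reads with the library totals implied by the FPKM was an alternative. The length and GC trends of each library were removed with splines of 5 degrees of freedom. Exact permutation tests cannot go below 0.1. The members and lists were chosen with earlier results of these data known. Values in every library are given for members called on the reads, for the 3 members of each arm with the smallest p (all 4 in ubiquitin signalling) and for complexes compared by ratio. Of the other lists, the largest change in each direction and the called genes are named, apart from 1 item not reported here; for markers, counts and medians are given. Neighbouring and overlapping genes were named after their values were seen.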

Additional observations from a re-analysis of the deposited data

How the results depend on the processing

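In the main test 5 genes were called. The count was 1 with no filter on low values, 3 with a filter at 1 FPKM, 16 with array weights, 0 with the length trend removed, 0 with the length and GC trends removed and 0 to 2 without 1 library. On the reads voom called 277 genes, 292 with the length trend removed, 125 over genes with a GC value and 113 with the length and GC trends removed. Without control replicate 1, 2 or 3 it called 76, 1058 and 42 genes, and without sedentary replicate 1, 2 or 3 it called 50, 779 and 22. It called 2 members, 1 with the length trend removed, 2 over genes with a GC value, 0 with the length and GC trends removed and 0 to 4 without 1 library. Without control replicate 2 the 4 were Atm, Rnf168, Atr and Brca1, and without sedentary replicate 2 the 3 were Atm, Rnf168 and Atr.

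Under TPM scaling the medians on the log2 scale were -0.20 for members, -0.19 for sensing, -0.24 for ubiquitin signalling, -0.15 for homologous recombination, -0.23 for end joining, -0.23 for longer and -0.17 for shorter members. With the length and GC trends removed they were -0.022 for members, -0.0043 for sensing, 0.032 for end joining (reversed), -0.028 for longer and -0.00096 for shorter members. Longer members were at -0.057 with the length trend alone removed, and homologous recombination was at -0.10 with array weights. Without 1 library the medians ran from -0.14 to -0.063 for members, -0.13 to -0.060 for sensing, -0.17 to -0.10 for ubiquitin signalling, -0.075 to -0.026 for homologous recombination, -0.16 to -0.047 for end joining, -0.16 to -0.10 for longer and -0.12 to -0.031 for shorter members. The cause was not tested.

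Of 32 members 20 kept their sign in every one of the 18 settings in which they were fitted. The replicate block and the changed filters could not reverse a sign, since they leave each member's fold change as it was. Chek2, Palb2 and Rad54l did not pass the filter at 1 FPKM and had no value in that setting. Removal of the length and GC trends reversed Rad50 (0.018), Nbn (0.011), Rad51c (0.050), Rad52 (0.038), Fancd2 (0.031, and 0.0057 with length alone), Fanca (-0.030), Xrcc4 (0.032), Xrcc5 (0.033) and Dclre1c (0.038). TPM scaling reversed Mre11a (-0.061), Rad54l (-0.075) and Fanca (-0.073). Array weights reversed Rad51d (0.0080), Rad54l (-0.036) and Fanca (-0.055), quantile normalization reversed Rad52 (0.033) and voom reversed Rad54l (-0.0035). Without 1 library the sign depended on the library for Mre11a (-0.0043 to 0.11), Rad51c (-0.075 to 0.022), Rad51d (-0.070 to 0.034), Rad52 (-0.083 to 0.054), Rad54l (-0.044 to 0.032), Fanca (-0.045 to 0.070), Xrcc4 (-0.23 to 0.019) and Xrcc5 (-0.051 to 0.053). None of these 12 members was called.

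With the replicate number as a block, 0 genes were called on FPKM, and on the reads 381 genes and 1 member, Atm (adjusted p of limma's voom 0.0212, with Rnf168 at 0.0652). Deviations of same-numbered libraries correlated at -0.067, -0.087 and -0.035. The highest correlation was 0.090, between control replicate 2 and sedentary replicate 1. With 3 libraries a group these values cannot settle whether the numbers mark a pairing. The planned tests with edgeR and DESeq2 on the reads were not run.

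Depth limits Chek2 and Rad51b most, with at most 70 and 28 reads in a library. With 3 animals a group, leaving out 1 library ended the calls of Atm and Rnf168 in 4 of 6 fits.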
